A study of Mus musculus with 8 samples.

Results

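The genes described here encode the translation initiation factors eIF1 to eIF6 and the elongation factors eEF1 and eEF2, with their direct inhibitors and modifiers. They were picked by symbol, as the genes whose names begin with Eif followed by a digit from 1 to 6, or with Eef1 or Eef2. This set was chosen with earlier results of these data known. The eIF2 kinase genes and the sex-linked pair of eIF2 gamma subunit genes were left out. The rule found 101 transcript isoforms of 58 genes among the 34535 isoforms of 24358 genes in the deposited table. The cells were adipocyte precursors (APs), the skin's stromal progenitors of fat cells, sorted by flow cytometry from the dermis of male C57/Bl6 mice aged 7 weeks. One group comprised 6 samples from the nonwounded dorsal skin, and the other 2 samples from the wound bed at day 5, with no transgene or agent named for either. The table gives 1 FPKM per isoform and group (fragment counts scaled for transcript length and library size). The authors pooled the samples of a group, so no value per sample, SD or sample depth can be given. Separate mice are not named in the labels, so the spread between these samples may be technical. The p-values are those of the authors' Cuffdiff test. How far they reflect that spread cannot be checked from pooled values.

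Translation of most mRNAs starts when the eIF4F complex binds the 5′ cap. The small ribosomal subunit, carrying eIF1, eIF1A, eIF3, eIF5 and the initiator tRNA held by eIF2, is recruited to it and scans to the start codon. In eIF4F, eIF4E binds the cap, eIF4G is the scaffold and eIF4A is an RNA helicase. The 4E-binding proteins compete with eIF4G for eIF4E, and mTORC1 releases that block by phosphorylating them. Elongation then depends on eEF1A, which delivers aminoacyl-tRNA, on its exchange factor eEF1B, and on eEF2, which drives translocation.

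The sequences shown here mark where isoforms of Eif4g1 and of Eif4a2 differ within their coding region. In Eif4g1 both isoforms were called. In Eif4a2 the called short form is set beside the full-length form, which was not called. They were read from the GENCODE M21 transcripts (GRCm38) that the reference pairs with the RefSeq identifiers of the table. In Eif4g1, NM_145941 holds a short exon of 21 bases (7 codons), exon 4, at chr16:20674786-20674806 on the plus strand, which NM_001304432 lacks. Capitals mark the short exon and lower case the coding bases beside it.
NM_145941: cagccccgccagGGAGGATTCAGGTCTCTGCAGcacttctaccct
NM_001304432: cagccccgccagcacttctaccct
NM_145941 also starts a later coding exon 21 bases upstream, at chr16:20684408-20684428, and capitals mark this extension.
NM_145941: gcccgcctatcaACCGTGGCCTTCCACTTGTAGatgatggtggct
NM_001304432: gcccgcctatcaatgatggtggct
Both insertions keep the reading frame, so the coding lengths correspond to 1600 and 1586 residues. In Eif4a2 (plus strand), the coding exon at chr16:23111817-23111896 is joined to different last exons. That of NM_001123038 starts at base 23112351 and that of the full-length form, NM_013506, at base 23113167. Capitals mark the 10 bases after the junction, which in NM_001123038 end with its stop codon.
NM_001123038: cgtgaaaactatattcacagGAGTCGATAG
NM_013506: cgtgaaaactatattcacagAATTGGCAGA
NM_001123038 thus has a coding length of 362 residues and NM_013506 of 407.

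Most translation factor transcripts stood at similar levels in both groups. Of the 58 genes, 57 had an isoform that was tested, with 85 tested isoforms in all. The 16 isoforms that were not tested had FPKM of 0.621 or less. With Benjamini-Hochberg adjustment of the authors' deposited p-values over all 17775 tested isoforms, and an adjusted p under 0.05 as the call, 4 member isoforms were called higher in the wound bed (4.71% of those tested) and 3 lower (3.53%). Of all tested isoforms 5.66% were called higher and 7.25% lower (12.9% together), so the members' shares were near or below the background. The 7 calls fell in 5 genes: Eif1a and Eif4e were higher, Eif4a2 was lower, and Eif4g1 and Eif5a each had an isoform called in each direction. That is 8.77% of the 57 genes, against 16.3% of 13719 tested genes in the table. A further 3 member isoforms that were higher and 5 that were lower had an unadjusted p under 0.05 without a call. The smallest p of the authors' Cuffdiff test in the table was 5e-05. It gives an adjusted p of 0.000882, the lowest possible here, which all isoforms at that limit share. Among isoforms of at least 10 FPKM in the higher group, 7 of 56 members (12.5%) were called, against 22.6% of all such isoforms (11.9% higher and 10.8% lower). In total 15 of 85 (17.6%) had an unadjusted p under 0.05, against 27.3% in the table. In bulk samples such as these, fewer cells of a type and less RNA per cell cannot be told apart.

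Fold changes below are log2 of the wound bed over the nonwounded FPKM. A gene sum adds the FPKM of all isoforms of a gene, and where values are given as a pair without their groups, the wound bed comes first unless a rise or fall is stated. Of the 57 genes with a gene sum of at least 1 FPKM in the higher group, 28 were higher and 29 lower in the wound bed. The median was -0.01, with quartiles of -0.34 and 0.22. For all 12643 genes passing the same minimum it was -0.16, with quartiles of -0.66 and 0.37. A change of at least 1 was reached upward by 3 members (Eif3j1, Eif1a and Eif4e) and downward by 3 (Eef1a2, Eif2b4 and Eef2k), against 11.9% and 15.4% of all genes. These counts depended on the scale. On log2(FPKM + 1) they were 2 higher (Eif3j1 and Eif1a) and 0 lower, and relative to the median of all genes 3 higher and 1 lower (Eef1a2). Eif3j1 cannot be separated from Eif3j2, as described below. Changes smaller than 0.5 in size made up 43 of the 57 members (75.4%) and 46.8% of all genes. The members were more abundant than other genes, with a median gene sum of 37.8 FPKM in nonwounded skin against 7.24. Among genes of at least 10 FPKM in both groups, 36 of 43 members (83.7%) and 63.5% of 4340 genes lay within this range. The median of all genes with at least 1 FPKM in both groups was -0.13. Relative to it 32 members were higher and 25 lower, and the direction of Eef1e1, Eif3k, Eif4b and Eif4e2, all close to 0, flipped.

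**Figure D1:**
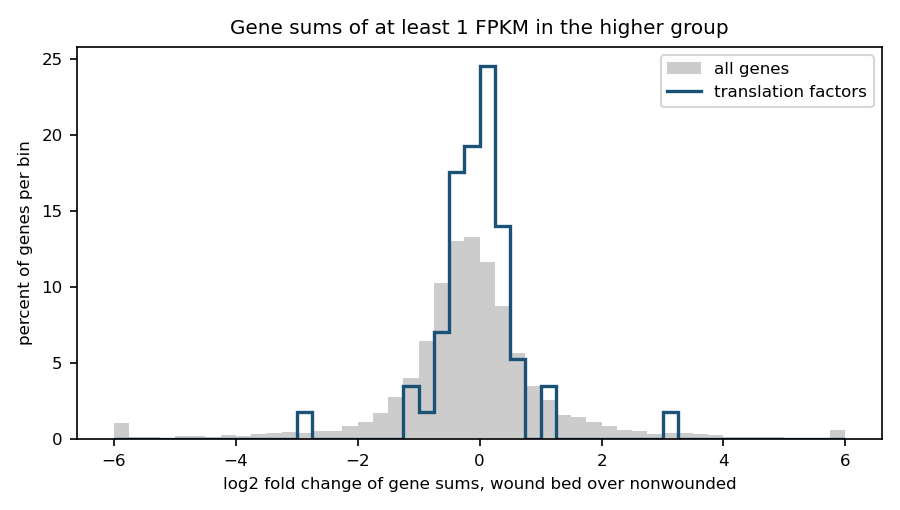
Distribution of the log2 fold change of gene sums, wound bed over nonwounded (horizontal axis), as percent of genes per bin of 0.25 (vertical axis), for the 57 translation factor genes (line) and all 12643 genes (grey), with values beyond the axis gathered in its end bins. The translation factors crowd around 0, with 75.4% within 0.5 of it against 46.8% of all genes.

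Among the subunits of eIF4F, the cap-binding gene Eif4e rose in the wound bed. Its only isoform stood at 37.2 FPKM in the wound bed against 18.4 in nonwounded skin, a fold of 2.02 and a log2 fold change of 1.02 (adjusted p = 0.00306 by the authors' Cuffdiff test). Of its homologues, Eif4e2, which encodes a cap-binding protein linked to repression of translation, had gene sums of 42.5 and 43.9. Eif4e3 stood at 7.41 and 7.08, and Eif4e1b, which is known from the germ line, was listed at 0 in the wound bed and at 0.00578 in nonwounded skin. In nonwounded skin Eif4e was thus at 0.419 times the level of Eif4e2, and in the wound bed at 0.877 times. The table places Eif4e at chr3:138526191-138557599.

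The transcripts that encode the inhibitors of eIF4E did not pass the test. Eif4ebp1, the best-known 4E-binding protein gene, stood at 45.5 FPKM in the wound bed against 39.4 in nonwounded skin. Eif4ebp2 stood at 20.6 and 17.7, and Eif4ebp3 at 5.62 and 6.57. Their log2 fold changes ran from -0.23 to 0.22. The ratio of Eif4e to Eif4ebp1, both in FPKM, was 0.819 in the wound bed against 0.467 in nonwounded skin. Eif4enif1, which carries eIF4E into the nucleus and binds it in cytoplasmic granules, had gene sums of 14.6 and 16.2, with none of its 4 tested isoforms called.

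The scaffold gene Eif4g1 exchanged one isoform for the other while its total hardly moved. NM_145941, the form with both insertions printed above, fell from 49.1 FPKM in nonwounded skin to 18.9 in the wound bed, a log2 fold change of -1.37 (adjusted p = 0.000882 by the authors' Cuffdiff test). NM_001304432, the form without them, rose from 14.4 to 49.7, a log2 fold change of 1.79 (adjusted p = 0.00239 by the authors' Cuffdiff test). The form with the insertions made up 77.3% of the gene sum in nonwounded skin and 27.6% in the wound bed. The gene sums were 63.5 and 68.6, a log2 fold change of 0.11. Because these 2 isoforms are the only ones in the table, forms with 1 of the 2 insertions were not measured. The models also differ by 23 bases in the start of the first exon, and which difference carried the reads cannot be told apart. The table places the gene at chr16:20672727-20692883. Its relatives Eif4g2, which encodes a scaffold lacking the eIF4E-binding part, and Eif4g3 had gene sums of 94.4 and 74.1, and of 16.9 and 14.1, without a call. The main isoform of Eif4g3, NM_172703, was at 12.3 against 8.01 (adjusted p = 0.145 by the authors' Cuffdiff test).

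The helicase genes of eIF4F differed in direction, with a call in Eif4a2 alone. Eif4a1 had a gene sum of 304 FPKM in the wound bed against 229.7 in nonwounded skin, without a call (log2 fold change of its main isoform 0.43). Its close relative Eif4a2 had a gene sum of 58.0 against 109. The short form NM_001123038, whose last coding bases are printed above, fell from 56.4 to 20.3, a log2 fold change of -1.47 (adjusted p = 0.000882 by the authors' Cuffdiff test). Of the other isoforms, the full-length NM_013506 stood at 15.2 in the wound bed against 26.0 in nonwounded skin. NM_001123037, which skips a coding exon of 140 bases, stood at 5.37 and 17.8 (unadjusted p = 0.0179 in the authors' deposited table, not called). NR_110335 went the other way, at 17.2 and 8.78, without a call. The annotation marks it as a target of nonsense-mediated decay, and it holds an extra exon of 107 bases that starts at the same base as the last exon of the short form. Eif4a1 made up 84.0% of the joint FPKM of both genes in the wound bed against 67.8% in nonwounded skin, while their joint sum changed by 0.10 on the log2 scale. The coding sequences of Eif4a1 and full-length Eif4a2 are 77.9% identical. The locus of Eif4a2 in the table runs to base 23127730, beyond the annotated end of the gene at base 23114136.

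The other helicase partners changed little. Eif4b, a cofactor that stimulates eIF4A, stood at 71.9 and 73.0 FPKM, and Eif4h, a related cofactor, at 83.3 and 73.0. Eif4a3, which encodes a core protein of the exon junction complex, stood at 35.3 and 45.7. In all, the eIF4F group had 21 tested isoforms, 2 called higher and 2 lower. Of all tested isoforms 5.66% were called higher and 7.25% lower, or 11.9% and 10.8% of those of at least 10 FPKM. The median log2 fold change of its gene sums was 0.11.

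**Figure D2:**
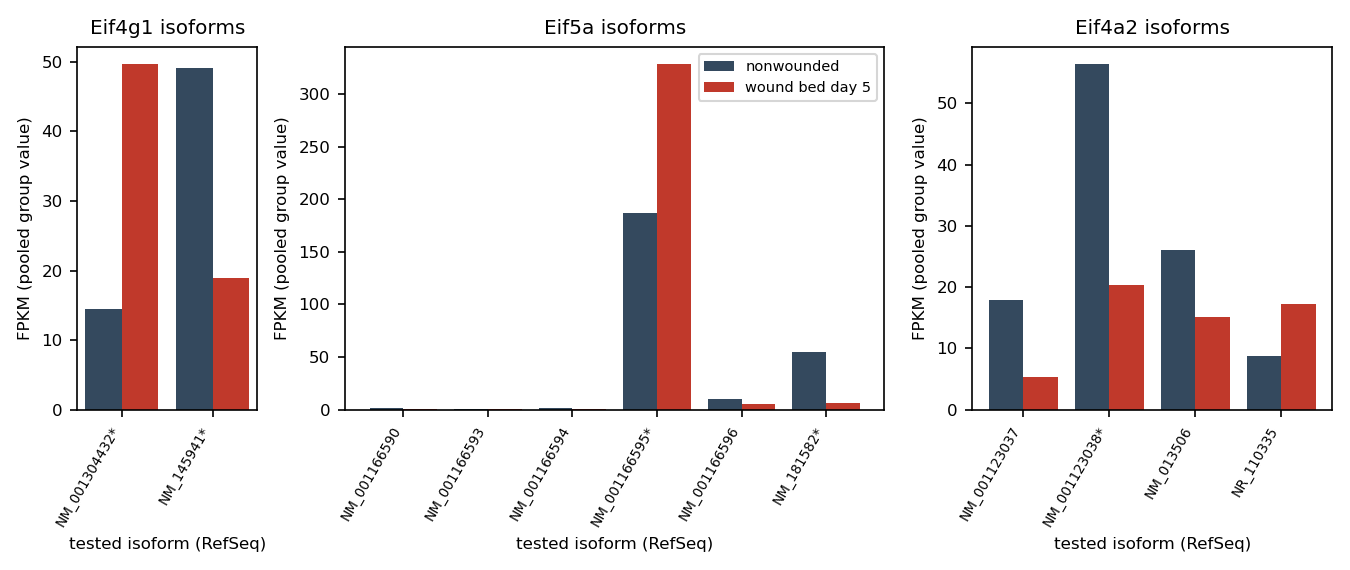
FPKM of each tested isoform of Eif4g1, Eif5a and Eif4a2 (vertical axes, linear) in nonwounded skin (dark) and the wound bed (red), 1 pooled value per bar without error bars, asterisks marking called isoforms. The tall bar of Eif4g1 changes from NM_145941 (49.1 FPKM, nonwounded) to NM_001304432 (49.7, wound bed).

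Among genes of start codon selection, Eif1a was the one with a call. This gene encodes a copy of eIF1A, which binds the decoding site of the small subunit during scanning. Its transcript stood at 32.1 FPKM in the wound bed against 14.1 in nonwounded skin (log2 fold change 1.18, adjusted p = 0.000882 by the authors' Cuffdiff test). Eif1ax, the X-linked copy, stood at 38.5 and 30.5 without a call. Their coding sequences are 85.5% identical, and whether reads were shared between them was not tested. The joint FPKM of the pair was 70.6 and 44.7, a log2 fold change of 0.66. Eif1, whose product guards against starts at wrong codons, was far more abundant, at 407 and 469. Its paralogue Eif1b stood at 42.7 and 62.9 (log2 fold change -0.56, adjusted p = 0.173 by the authors' Cuffdiff test). Eif5, the GTPase-activating factor of eIF2, had gene sums of 46.3 and 41.3, and Eif5b, the GTPase of subunit joining, stood at 5.74 and 4.95. Eif1ad, an eIF1A-related gene, stood at 5.79 and 6.89. Apart from Eif1a, 0 of the 7 tested isoforms of this group were called, and 1 had an unadjusted p under 0.05. Over all tested isoforms these shares were 12.9% and 27.3%.

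The genes of eIF2 and of its exchange factor gave 0 calls, and those of the exchange factor all lay lower in the wound bed. Eif2s1 encodes the alpha subunit, whose phosphorylation slows initiation, and stood at 11.9 FPKM in the wound bed against 10.8 in nonwounded skin. Eif2s2, the beta subunit gene, stood at 37.3 and 28.3. Eif2a and Eif2d, which encode other proteins able to bring tRNA to the small subunit, had gene sums of 19.7 and 18.1, and of 12.2 and 14.1. The genes of all 5 subunits of eIF2B, which reloads eIF2 with GTP, were lower in the wound bed, with a median log2 fold change of -0.44 for the gene sums. For all genes of at least 1 FPKM in the higher group the median was also below 0, at -0.16. Eif2b4 had the largest difference among them, with a gene sum of 5.79 against 12.2. Its main isoform stood at 5.55 and 11.6 (log2 fold change -1.06, adjusted p = 0.0776 by the authors' Cuffdiff test). Eif2b2 stood at 8.47 and 12.9, Eif2b3 had gene sums of 6.91 and 9.40, Eif2b1 stood at 9.39 and 12.2, and Eif2b5 at 13.0 and 16.3. Of the 5 tested eIF2B isoforms 0 were called and 1 had an unadjusted p under 0.05, against 12.9% and 27.3% of all tested isoforms. The eIF2B differences are thus given as values and did not pass the test. The summed FPKM of the 5 eIF2B genes was 43.6 in the wound bed against 63.0 in nonwounded skin.

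The genes of eIF3, the large scaffold that holds the small subunit and eIF4G together, gave 0 calls among 16 tested isoforms, with 1 unadjusted p under 0.05. Over all tested isoforms 12.9% were called and 27.3% had an unadjusted p under 0.05. Leaving aside the j subunit, the 12 gene sums had log2 fold changes between -0.42 and 0.54 with a median of -0.09. Of these, 5 were higher and 7 lower, or 6 and 6 relative to the median of all genes. At the upper end was Eif3a, the largest subunit, at 44.0 FPKM in the wound bed against 30.3 in nonwounded skin (adjusted p = 0.151 by the authors' Cuffdiff test). At the lower end was Eif3d, a subunit that can itself bind the cap of some mRNAs, at 34.4 and 46.1. The subunit transcripts differed in abundance within a group. In nonwounded skin they ran from 30.3 FPKM for Eif3a to 176 for Eif3f, and in the wound bed from 34.4 for Eif3d to 150.2 for Eif3f.

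The genes of the loosely bound j subunit cannot be separated in this table. Eif3j1 stood at 10.3 FPKM in the wound bed against 1.24 in nonwounded skin (log2 fold change 3.07) without a call, and Eif3j2 at 10.3 and 14.5. The table places both in 1 locus on chromosome 2, whereas the GENCODE annotation places Eif3j2 on another chromosome, and their coding sequences are 99.2% identical. Their joint FPKM was 20.7 and 15.7, a log2 fold change of 0.40.

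Many mRNAs of the translation machinery start with a run of pyrimidines, the terminal oligopyrimidine motif, through which mTORC1 is known to control them. At the annotated starts, a C followed without a break by C or T to a run of at least 5 was found at 1 of 58 starts of the 44 members in the RefSeq promoter table (GRCm38.p6). This was 1.72% of the members' starts, against 2.51% of all 32851 starts. The member was Eif3f, shown from 10 bases before its start, with the run of 11 pyrimidines in capitals (chr7:108934405-108934434, plus strand).
Eif3f: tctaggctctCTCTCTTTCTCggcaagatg
The search covered the sense strand at the exact annotated base, so a start annotated a few bases away from the true one would not match. Members without a start in the promoter table were not searched. The shares thus do not tell how many members carry the motif.

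Eif5a, which encodes the factor that relieves stalled ribosomes and carries the modified residue hypusine, again had isoforms in opposite directions. NM_001166595 was the main form and rose from 187 FPKM in nonwounded skin to 328 in the wound bed, a log2 fold change of 0.81 (adjusted p = 0.0170 by the authors' Cuffdiff test). NM_181582 fell from 54.9 to 6.46, a log2 fold change of -3.09 (adjusted p = 0.000882 by the authors' Cuffdiff test). The main form made up 73.0% of the gene sum in nonwounded skin and 96.2% in the wound bed. The gene sum was 341 in the wound bed against 256 in nonwounded skin (log2 fold change 0.41). The other 4 tested isoforms stood at 10.3 FPKM or less without a call. The annotation gives the same coding length, 154 residues, for the transcripts paired with all 9 isoforms in the table. It pairs NM_001166595 and NM_181582 with the same transcript, so where these isoforms differ is not resolved here. The table places the gene at chr11:69916712-69921958. Its paralogue Eif5a2 stood at 2.06 and 1.28 without a call, and the coding sequences of both genes are 72.7% identical.

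Opposite calls within a gene were rare in the table. Of the 13 members with more than 1 tested isoform, 2 had isoforms called in both directions, and of the 2758 such genes in all, 8 did (0.29%). Isoforms of 1 gene share most of their reads, so an estimate that moves reads from one to the other changes both values at once, and its part in these calls was not tested.

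Eif6, which keeps the large ribosomal subunit from joining too early and is needed to make that subunit, stood at 42.2 FPKM in the wound bed against 26.3 in nonwounded skin. This log2 fold change of 0.68 did not pass the test (adjusted p = 0.104 by the authors' Cuffdiff test).

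The elongation factor genes held the most abundant transcripts and gave 0 calls among 12 tested isoforms, with an unadjusted p under 0.05 for 2. Over all tested isoforms these shares were 12.9% and 27.3%. Eef1a1, the main eEF1A gene, stood at 4327 FPKM in the wound bed against 3539 in nonwounded skin. It made up 49.9% and 45.5% of the summed FPKM of all 58 genes, which was 8674 and 7773. Eef2 stood at 659 and 518, with a log2 fold change of 0.35, and Eef1g, the gamma subunit of the exchange factor, at 453 and 398. The exchange subunits Eef1b2 and Eef1d were lower in the wound bed, at 219.6 against 301 and with gene sums of 55.1 against 84.1. The main isoform of Eef1d, NM_023240, stood at 41.0 and 66.3 (log2 fold change -0.69, adjusted p = 0.0656 by the authors' Cuffdiff test). None of these differences passed the test. Eef1e1, a component of the multi-synthetase complex, stood at 8.71 and 9.14.

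Eef1a2, the eEF1A gene of muscle and neurons, stood at 0.152 FPKM in the wound bed against 1.17 in nonwounded skin (log2 fold change -2.95, adjusted p = 0.145 by the authors' Cuffdiff test). Markers of skeletal muscle were also lower in the wound bed. All 11 tested muscle genes, each with a gene sum of at least 1 FPKM in the higher group, were lower in the wound bed, and 2 were called. Over all tested genes, 9.16% had an isoform called lower. Myh2, listed but not tested, was slightly higher in the wound bed, at 0.0416 against 0.0326. The summed FPKM of the 14 listed genes was 13.5 in the wound bed against 155 in nonwounded skin, and none was at 0. The part of muscle RNA in the value of Eef1a2 was not tested. Eef1a1 stood 3018 times above Eef1a2 in nonwounded skin, so the joint eEF1A level follows Eef1a1.

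The regulators of elongation had 0 calls among 3 tested isoforms and 0 unadjusted p under 0.05, against 12.9% and 27.3% of all tested isoforms. Eef2k, the kinase gene whose product inhibits eEF2, had gene sums of 4.18 FPKM in the wound bed against 8.54 in nonwounded skin. This was carried by NM_001267711, at 1.47 and 6.52, while NM_001267710 stood at 2.71 and 1.72. Eef2kmt, an eEF2 methyltransferase gene, stood at 8.10 and 12.5.

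**Figure D3:**
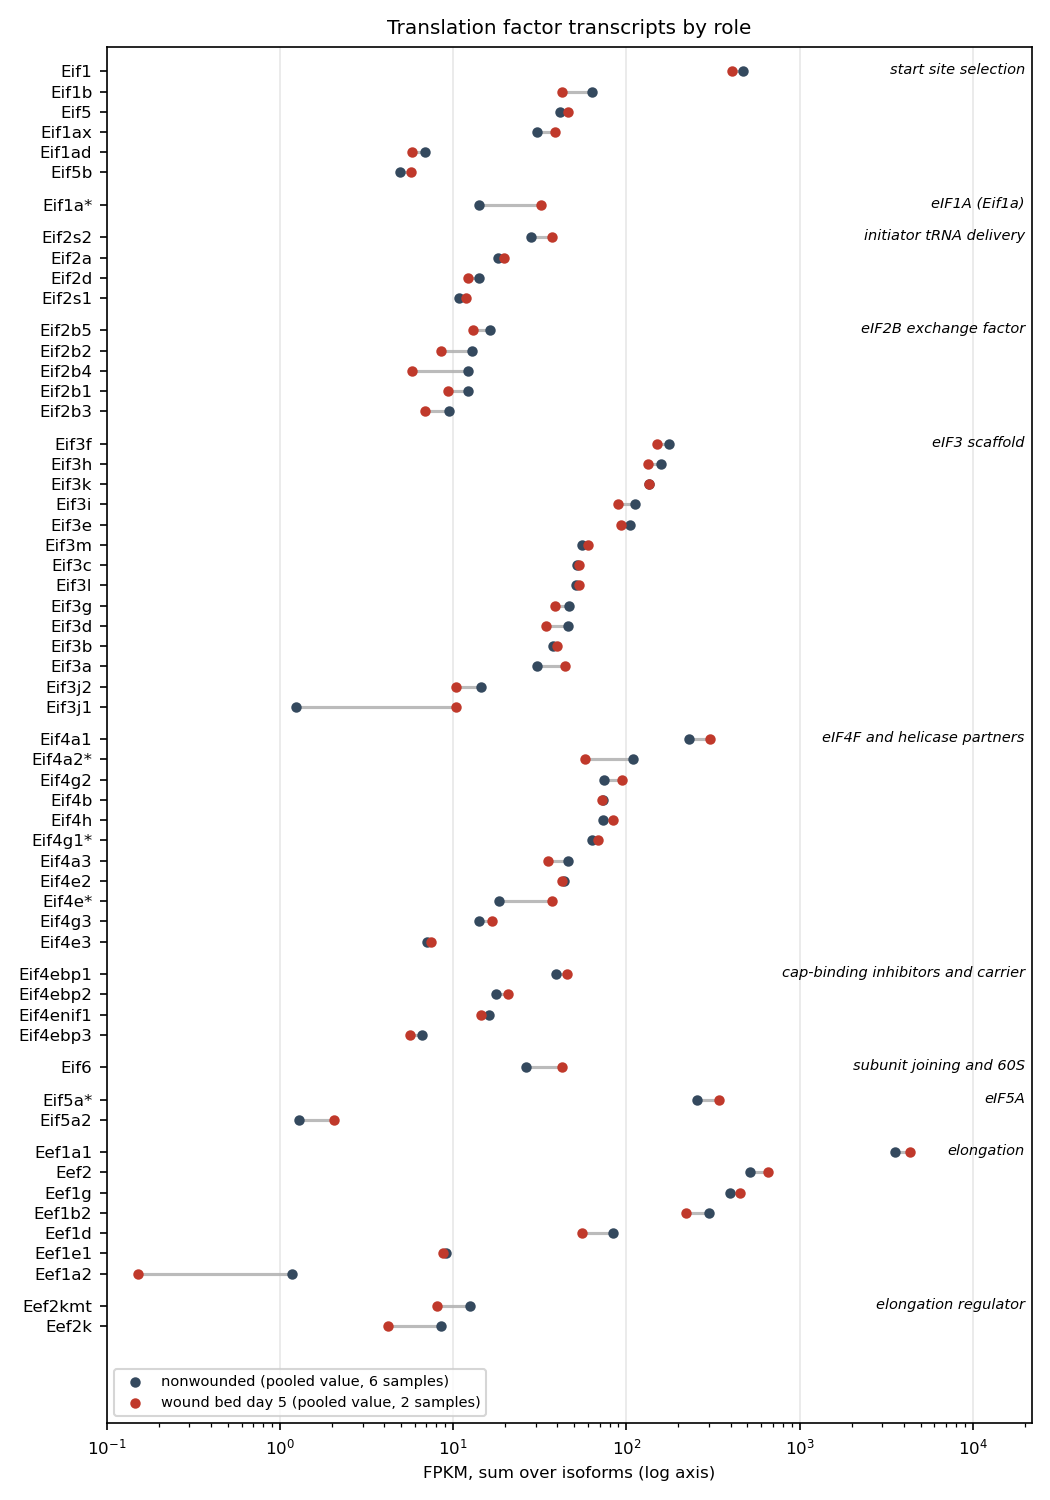
Gene sums in FPKM (horizontal log axis) of the 57 translation factor genes with at least 1 FPKM in the higher group, by role, in nonwounded skin (dark) and the wound bed (red), 1 pooled value per point, asterisks marking genes with a called isoform. For most genes the points lie close together. Eif3j1 (1.24 and 10.3 FPKM) and Eef1a2 (1.17 and 0.152), neither called, lie farthest apart, and Eif4e (18.4 and 37.2), Eif1a (14.1 and 32.1), Eif2b4 (12.2 and 5.79) and Eef2k (8.54 and 4.18) also lie apart.

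The sort was checked against markers. The precursor gene Pdgfra had gene sums of 91.8 FPKM in the wound bed against 80.9 in nonwounded skin. Cd34 stood at 679 against 1104 and Itgb1 at 197 against 117, both without a call. Ly6a, with gene sums of 1576 against 2691, had 2 isoforms called lower in the wound bed. Cd24a, at 9.38 against 24.9, had 1. The summed FPKM of these 5 precursor genes was 2553 in the wound bed against 4018 in nonwounded skin, with a median log2 fold change of -0.70. The monocyte and macrophage markers were higher in the wound bed in 10 of 10 tested genes, with 8 genes called. Their summed FPKM was 848 in the wound bed against 244 in nonwounded skin, with none at 0, and Ptprc, the pan-leukocyte gene, stood at 5.68 and 0.806. Markers of red cells (summed FPKM 193 and 3083) and of mature adipocytes (3.15 and 86.2) were lower. Keratinocyte markers summed to 32.2 and 17.3, with 4 of 5 gene sums higher and 1, Krt15, lower. Of these 5 genes 2, Krt1 and Krt14, were called higher. Endothelial markers summed to 6.80 and 5.55, with 0 of 3 genes called. Over all tested genes, 7.21% had an isoform called higher and 9.16% one called lower. The part of other cells in the calls of Eif4e, Eif1a, Eif4a2, Eif4g1 and Eif5a was not tested.

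Of 47 other genes that control translation, all tested and none of them members, 8 had an isoform called higher and 2 one called lower. Over all tested genes, 7.21% had an isoform called higher and 9.16% one called lower. The lists were chosen with earlier results of these data known, so the counts do not measure an excess over those shares. Among genes that set the phosphorylation of eIF2 and the response to it, 4 of 11 were called higher, and 9 of the 11 gene sums were higher in the wound bed. Ppp1r15a, the stress-induced subunit that brings a phosphatase to eIF2, rose from 22.9 FPKM in nonwounded skin to 141 in the wound bed, a log2 fold change of 2.63 (adjusted p = 0.000882 by the authors' Cuffdiff test). Eif2ak2, the kinase activated by double-stranded RNA, rose from 5.73 to 10.5 (adjusted p = 0.0341 by the authors' Cuffdiff test). The other eIF2 kinase genes, Eif2ak1, Eif2ak3 and Eif2ak4, had log2 fold changes of -0.50, -0.15 and 0.45 without a call. The transcription factor genes Atf4 and Ddit3, translated or induced when eIF2 is phosphorylated, had gene sums of 280 against 155 and 40.7 against 16.2 and were both called higher.

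Around the cap, Pabpc1, the poly(A)-binding protein gene whose product contacts eIF4G, rose from 118 FPKM to 344.5, a log2 fold change of 1.54 (adjusted p = 0.000882 by the authors' Cuffdiff test). It was the only one called of 5 genes of poly(A) binding and its partners. Of these 5 gene sums, 2 were higher and 3 lower in the wound bed, with a median log2 fold change of -0.16. Mknk2, a kinase gene whose product phosphorylates eIF4E, rose from 25.01 to 54.7 (adjusted p = 0.000882 by the authors' Cuffdiff test). Ddx3x, an RNA helicase gene of initiation, rose from 45.1 to 111 (adjusted p = 0.000882 by the authors' Cuffdiff test). It was the only one called of 5 other initiation and recycling genes, with 3 gene sums higher and 2 lower. Pdcd4, whose product inhibits eIF4A, had a gene sum of 12.1 against 19.8, and its called isoform fell from 16.2 to 8.10 (adjusted p = 0.0276 by the authors' Cuffdiff test). Of the 19 genes of mTORC1 and cap-binding control, Mknk2 and Pdcd4 were the ones called, and the median log2 fold change was -0.13. Mtor itself stood at 2.99 and 3.54, and Ddit4, an inhibitor of mTORC1, at 30.1 and 53.3 without a call.

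The release factor gene Etf1 rose from 20.5 FPKM to 44.3 (log2 fold change 1.11, adjusted p = 0.000882 by the authors' Cuffdiff test). Gspt2, a release factor partner, fell from 3.89 to 1.07 (adjusted p = 0.0436 by the authors' Cuffdiff test), while its more abundant relative Gspt1 had gene sums of 14.0 and 12.1. Of the 5 genes of termination and rescue, 1 was called higher and 1 lower. The hypusine enzyme genes Dhps and Dohh, which modify eIF5A, stood at 8.49 and 7.81, and at 6.58 and 4.72, with 0 calls and 0 unadjusted p under 0.05. Over all tested genes 16.3% had a call, and 27.3% of all tested isoforms had an unadjusted p under 0.05.

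**Figure D4:**
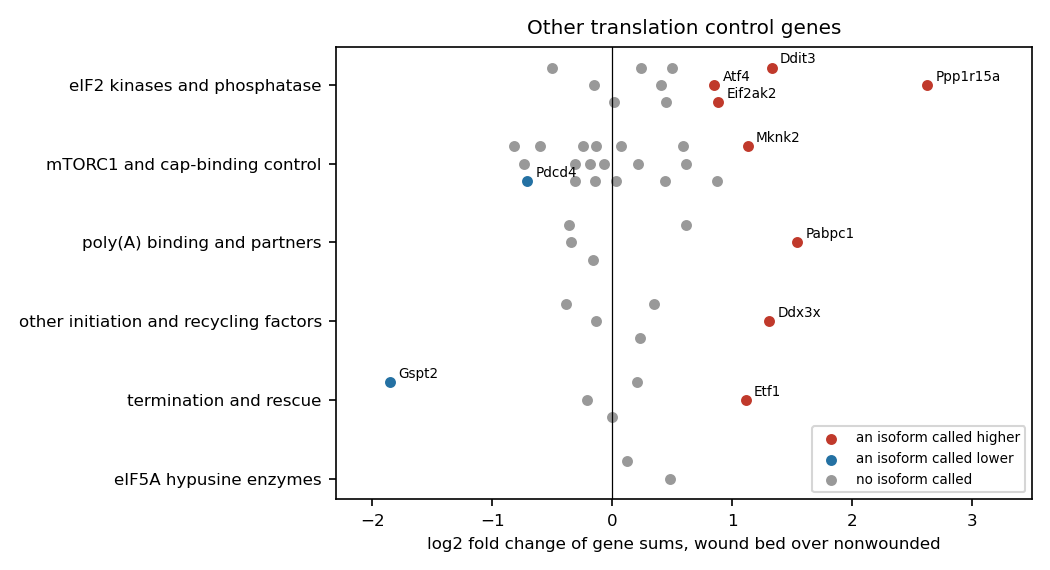
Log2 fold change of gene sums, wound bed over nonwounded (horizontal axis), of the 47 translation control genes outside the factors, by list (rows, points offset vertically for legibility), red with an isoform called higher, blue with one called lower and grey with none. Ppp1r15a (2.63) and Pabpc1 (1.54) lie farthest to the right and Gspt2 (-1.86) farthest to the left.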

How the data were processed

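RNA from the sorted cells was made into TruSeq mRNA libraries, per the labels' protocols. Reads were aligned with TopHat2 2.0.2 and groups compared with Cuffdiff 2.0.2, with mm9 named as the build, per the submitters' processing notes. The authors deposited 1 FPKM per isoform and group and an unadjusted p-value per isoform, and 0 columns held values of a sample, so no test across samples could be run. Whether strand was used is not given in the sources used here. The start or end of the table's loci lay within 100 bases of that of the GRCm38 gene for 55 of 58 members, so the printed loci are read as GRCm38 coordinates.

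Fold changes were computed from the deposited FPKM without a pseudocount, and p-values were adjusted over all isoforms with status OK. The adjusted calls gave the deposited significance column for all isoforms, with 0 differences. All 101 member isoforms were paired with 92 GENCODE transcripts, and 16 of them share one with another isoform. Coding identity was taken from global alignments (biopython 1.88). Each member could be named. Full values were given for members with a call, for the extremes and most abundant of each role and for the paralogue pairs. Of the other translation control genes, the called ones were named, and the uncalled ones beside them were picked with their values in view. The members and lists were chosen with earlier results of these data known. The adjustment was tested on simulated data. Alternatives were other thresholds, FPKM minimums, centring, a pseudocount of 1 and major isoforms. Python 3.11.15 with numpy 2.4.6 and pandas 2.3.3 was used.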

Additional observations from a re-analysis of the deposited data

How the results depend on the processing

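At an adjusted p under 0.1 the members called lower went from 3 to 5, through Eef1d and Eif2b4. Without Eif4g1 and Eif5a, an alternative chosen after seeing the data, 2 were higher and 1 lower. The other thresholds, FPKM minimums and member sets gave 3 or 4 higher and 3 lower. Under a stricter adjusted p of 0.01, or a minimum log2 change of 1, the Eif5a isoform that was higher lost its call. Centring on the median of expressed genes moved the median over gene sums from -0.01 to 0.12. Centring on that of expressed isoforms moved the median over major isoforms from 0.04 to 0.15. The gene sum of Eif4g1 changed by 0.11, whereas its major isoform gave -1.37, since the isoforms went in opposite directions. Of the other gene sums 6 moved by over 0.1 with the major isoform, with Eif4enif1 going from -0.15 to 0.75, Eif4e2 from -0.05 to 0.36 and Eef2k from -1.03 to -2.15. On log2(FPKM + 1) 5 moved, with Eef1a2 going from -2.95 to -0.91. No paired analysis was possible because the table gives 1 pooled value per group, and for the same reason no replicate could be left out.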

Other observations

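The mitochondrial counterparts of these factors, a list of 9 genes drawn up with the table in view, gave 0 calls and 0 unadjusted p under 0.05 from the Cuffdiff p-values. In the wound bed 8 of the 9 gene sums were lower, and the median log2 fold change was -0.38. Over all tested genes 16.3% had a call, and the median over all genes of at least 1 FPKM was -0.16. Tufm, the mitochondrial elongation factor Tu gene and the most abundant of them, stood at 19.1 FPKM in the wound bed against 22.9 in nonwounded skin. Mtif3, a mitochondrial initiation factor gene, had gene sums of 2.17 and 4.39, and Gfm1, a mitochondrial elongation factor G gene, was the one higher, at 8.57 and 7.48.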
